A study of Mus musculus with 6 samples.

Results

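The nuclear genes for the subunits of the mitochondrial respiratory chain and ATP synthase were followed in mouse liver over a treatment course. Members were the protein-coding genes whose symbols fit the naming patterns of the subunit families (Nduf followed by a, b, c, s or v and a digit; Sdha to Sdhd; Uqcr; Cox4 to Cox8; Atp5) and that had at least 10 counts in each of 6 libraries. Of 85 protein-coding genes with such symbols, 79 qualified, out of 54446 genes in the deposited table: 35 of complex I, 4 of complex II, 8 of complex III, 15 of complex IV and 17 of complex V. Ndufa4 and its paralogue Ndufa4l2, named for complex I, were placed with complex IV. The other 6 genes were the muscle, lung or testis isoforms Cox4i2, Cox6a2, Cox7b2, Cox8b and Cox8c and a second Atp5o identifier. None of these 6 had more than 12 counts in any library. Ndufb1-ps, which the annotation does not class as protein-coding, was not a member and had 2195 to 3294 counts. Cyc1 and Ndufab1 fall outside the patterns and were examined with the other genes of the pathway.

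Poly-A RNA of liver was sequenced at weeks 0, 2 and 7 of a treatment that the series names as MET/CAT and SB transposase, with 2 libraries per week. An SB transposase inserts DNA carried between its recognition ends into a genome. All groups share a line described as mixed FVB/N and C57BL/6, although the number after C57BL/ rises by 2 from one sample label to the next, so the background is unsure. The labels give no age, sex, dose or untreated group at weeks 2 and 7, and do not say whether the 2 libraries of a week came from separate animals, so p-values measure the spread between these libraries only. Library totals ran from 49353453 to 58434358 counts. The female-specific RNA Xist had 13236 and 12804 counts at week 2 and at most 15 in any other library, and the Y-linked Ddx3y had 0 counts in both week 2 libraries and 1897 to 2303 in the rest. Week 7 against week 0 was therefore the comparison in which sex did not differ, and in both comparisons with week 2 time and sex cannot be told apart. In any comparison, treatment cannot be told apart from age or anything else that goes with the week. The 7 hepatocyte markers tested were abundant in every library, with a sum of 84168 to 119396 CPM (counts per 1e6 counts of the library). Exons of 28 members overlap another gene, and the kit does not mark strand, so reads of such pairs cannot be told apart.

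The respiratory chain passes electrons from NADH and succinate to oxygen through complexes I to IV of the inner mitochondrial membrane and pumps protons, whose return through complex V drives ATP synthesis. Complexes I, III, IV and V combine a few subunits encoded by mitochondrial DNA with many encoded in the nucleus, whereas complex II is entirely nuclear. The nuclear set holds large catalytic or cofactor-bearing subunits and many small accessory subunits that surround the core, and its transcription is commonly attributed to NRF1, GABP, YY1 and ERR factors with PGC-1 coactivators. Hepatocytes are rich in mitochondria and use this ATP for gluconeogenesis, urea synthesis and secretion.

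The promoters of 6 members are shown, 5 of genes that fell at week 7 and 1 of a gene that stayed at its week 0 level. They were chosen after the values were seen, among members whose window does not overlap an exon. Sequences come from RefSeq on GRCm38.p6, read 5′ to 3′ on the gene's strand, and end before the first base transcribed in GENCODE, so that their lengths differ. Capitals mark a match on either strand to the NRF1 motif, GCGCA and GCGC with any 1 base between them, or to the ETS motif CCGGAAG, which GABP binds. Cox7c, Cox7b and Ndufa4 fell at week 7, and the stretches shown hold no match. For Cox7b this is the full 250 bases searched. The stretches of Cox7c and Ndufa4 are only 141 and 203 bases, and matches in their trimmed bases are not given here. Uqcr11 and Ndufb6 also fell and hold an ETS match. Ndufb4, at 1.00 times its week 0 level at week 7, holds an NRF1 match.
Cox7c promoter, chr13:86046905-86047045, minus strand: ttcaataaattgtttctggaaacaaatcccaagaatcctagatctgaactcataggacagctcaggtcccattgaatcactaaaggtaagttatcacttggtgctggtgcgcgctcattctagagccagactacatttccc
Cox7b promoter, chrX:106015450-106015699, plus strand: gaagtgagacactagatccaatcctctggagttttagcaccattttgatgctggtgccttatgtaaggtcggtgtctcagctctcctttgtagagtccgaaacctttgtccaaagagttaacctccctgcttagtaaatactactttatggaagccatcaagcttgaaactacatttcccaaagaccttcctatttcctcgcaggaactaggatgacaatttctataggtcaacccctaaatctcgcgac
Ndufa4 promoter, chr6:11907498-11907700, minus strand: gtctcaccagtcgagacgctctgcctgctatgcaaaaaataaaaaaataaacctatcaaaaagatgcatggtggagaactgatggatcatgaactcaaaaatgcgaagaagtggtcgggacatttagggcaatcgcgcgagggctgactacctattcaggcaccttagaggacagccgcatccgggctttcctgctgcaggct
Uqcr11 promoter, chr10:80406831-80407071, minus strand: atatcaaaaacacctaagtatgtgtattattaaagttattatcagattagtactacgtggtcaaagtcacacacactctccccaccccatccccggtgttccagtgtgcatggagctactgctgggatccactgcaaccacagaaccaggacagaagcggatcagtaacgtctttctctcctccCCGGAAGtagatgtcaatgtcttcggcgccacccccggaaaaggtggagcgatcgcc
Ndufb6 promoter, chr4:40279422-40279671, minus strand: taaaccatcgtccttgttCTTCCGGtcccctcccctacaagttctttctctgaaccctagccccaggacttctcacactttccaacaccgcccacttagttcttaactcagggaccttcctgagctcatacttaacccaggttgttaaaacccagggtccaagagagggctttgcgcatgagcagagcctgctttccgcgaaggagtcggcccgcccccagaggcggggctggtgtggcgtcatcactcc
Ndufb4 promoter, chr16:37654454-37654618, minus strand: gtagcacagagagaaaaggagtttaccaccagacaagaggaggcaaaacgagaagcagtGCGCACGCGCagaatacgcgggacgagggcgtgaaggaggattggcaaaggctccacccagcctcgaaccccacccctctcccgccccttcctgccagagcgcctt

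The search covered the full 250 bases before the RefSeq start, which include the bases trimmed from the stretches shown, and such a window was found for 64 of the 79 members. The NRF1 letters occurred in 13 of the 64 (20.3%), against 999 of 16514 protein-coding genes (6.05%). The ETS letters occurred in 12 (18.8%), against 1740 of the same 16514 genes (10.5%). AAGATGGC (YY1) and TCAAGGTCA (ERR) occurred in 1 member each, and the ETS and YY1 letters can overlap in a shared AAG. Of the 16 members with a window that fell at week 7, 3 held the NRF1 letters and 5 the ETS letters. Among the 48 with a window that did not pass the test, these counts were 10 and 7. In the trimmed stretches, of 86 to 250 bases, the counts were 1 and 2 of 16 members that fell and 6 and 4 of 40 that did not pass. Ndufb4 had 3 NRF1 matches in its full window. A match is a description of the letters and not evidence of binding.

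At week 7 the nuclear subunit transcripts were slightly lower than at week 0, with most of the falls among small accessory subunits. Of the 79 members, 20 fell and 0 rose (edgeR quasi-likelihood test over 15368 genes, Benjamini-Hochberg adjusted p under 0.05), and 59 did not pass. Over all genes tested, 6.23% fell and 7.58% rose (13.8% in either direction). At an unadjusted p under 0.05, 40 members were lower and 2 higher, and the share of all genes at that threshold was not counted. DESeq2 called 28, with 27 lower and 1, Atp5a1, higher. Over all genes DESeq2 called 1225 lower and 1480 higher. The falls were small, from 0.868 to 0.675 times the week 0 level. The median log2 fold change was -0.15 over the members and 0.0016 over all genes, and 67 of 79 were negative. The 2 libraries of week 7 lay below both libraries of week 0 for 52 members and above both for 4; for all genes tested, groups did not overlap in 56% (27.8% lower, 28.2% higher). The count of called members rests on few libraries. It was 12 without week 0 replicate 1, 10 without week 0 replicate 2 and 9 without week 7 replicate 2, and the 20 stayed negative in each of these fits. The falls were mostly of short transcripts, and with an offset for transcript length 7 members fell and 1 rose, with a median of -0.05. With that offset 920 of the 15368 genes fell and 1044 rose. In bulk liver, fewer cells of a type and less RNA per cell cannot be told apart.

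**Figure D1:**
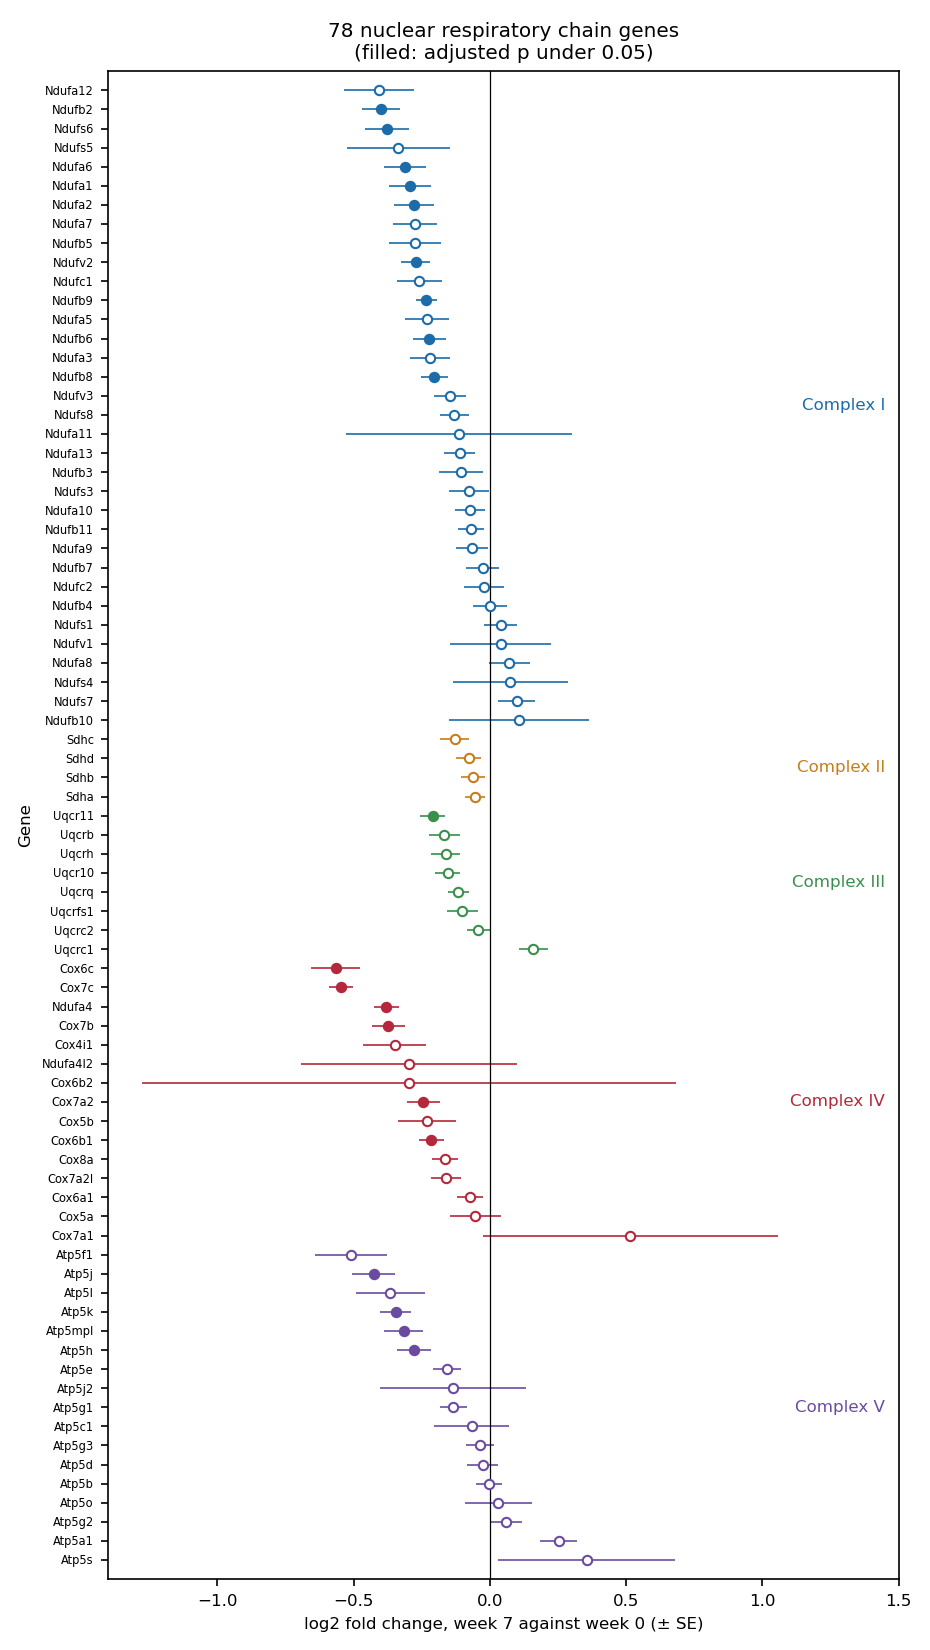
Log2 fold change of 78 of the 79 members at week 7 against week 0 (x axis, with bars of 1 SE), in rows by complex and then by size. Filled points passed the test at an adjusted p under 0.05; all 20 filled points lie left of 0, and the rows nearest or right of 0 include the large subunits Ndufs1, Ndufv1, Sdha, Uqcrc1, Atp5b and Atp5a1.

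Summed over its members, complex IV had the lowest week 7 level relative to week 0 of the 5 complexes. Its CPM sum, on library sizes scaled by the trimmed mean of M values (TMM), was 2489 and 2570.1 at week 0, 2327 and 2341 at week 2, then 2129.9 and 2085 at week 7, so that each week lay below the one before without overlap. On library totals without TMM the step to week 2 was lost, with 2400.4 and 2512 at week 0 and 2388 and 2439 at week 2, which overlap. The week 7 mean was 0.833 of week 0 with TMM and 0.854 on library totals. For complex I the sums were 3556 and 3642, then 3571 and 3529, then 3293 and 3265, a week 7 ratio of 0.911. The week 7 ratios were 0.950 for complex II, 0.948 for complex III and 0.960 for complex V, and at week 2 these 3 complexes and complex I stayed between 0.986 and 1.01 of week 0. These week 2 ratios also turned on the scaling: on library totals they were 1.05 for complex I, 1.07 for II, 1.05 for III and 1.08 for V, against 0.983 for IV. No test of a sum was made, since an exact permutation test of 2 against 2 libraries cannot give a p below 0.33, and the difference between complexes was not tested. The week 7 ratio of complex V was 0.985 on library totals.

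**Figure D2:**
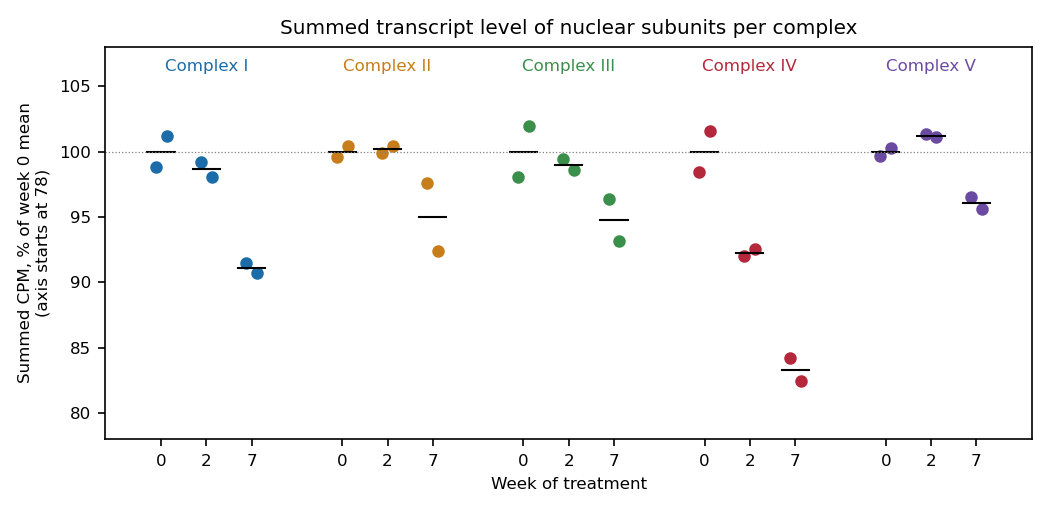
Summed level of the nuclear subunits of each complex per library (points), as percent of the week 0 mean of that complex, with the mean of each week as a bar; the axis starts at 78. Complex IV sits at 92.0 and 92.5 at week 2 and at 84.2 and 82.4 at week 7, below the week 7 points of the other 4 complexes, which lie between 90.7 and 97.6.

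In complex IV, cytochrome c oxidase, which reduces oxygen, the catalytic core is encoded by mitochondrial DNA and the nuclear subunits form a shell around it. Of the 15 nuclear genes, 6 fell and 0 rose, and the median log2 fold change was -0.24. Over all genes tested, 6.23% fell and 7.58% rose. With the length offset 4 of the 15 fell, with a median of -0.12, and Cox6b1 and Cox7a2 did not pass (adjusted p = 0.575 and 0.256). Cox7c had 214 and 223 CPM at week 0, 183 and 185 at week 2, then 149 and 150 at week 7. Its libraries separated by week without overlap, and at week 7 it was 0.685 times week 0 (log2 -0.55 ± 0.04 SE, adjusted p = 8.7e-05). Cox6c had 142 and 145 CPM at week 0, 146 and 145 at week 2, then 107 and 87.0 at week 7. Both week 7 libraries lay below the other 4, at 0.675 times week 0 (log2 -0.57 ± 0.09 SE, adjusted p = 0.0052). Cox7b had 213 and 191 CPM at week 0, 204 and 197 at week 2, then 151 and 161 at week 7 (log2 -0.37 ± 0.06 SE against week 0, adjusted p = 0.0043). Ndufa4, a peripheral subunit, had 204 and 201 CPM at week 0, 178 and 173 at week 2, then 159 and 152 at week 7, in steps without overlap (log2 -0.38 ± 0.05 SE, adjusted p = 0.00089). These 4 genes passed with any 1 library left out. Cox6b1, on the face of the enzyme toward cytochrome c, fell by 0.22 on the log2 scale (adjusted p = 0.016), and Cox7a2, the liver isoform of subunit 7a, by 0.24 (adjusted p = 0.032). Cox6b1 lost its call without either week 0 library or week 7 replicate 2 (adjusted p up to 0.104), and Cox7a2 without any 1 of the 4 libraries of weeks 0 and 7 (adjusted p up to 0.130).

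The larger subunits of complex IV varied between libraries of the same week. Cox4i1, the general isoform of subunit 4, had 301 and 356 CPM at week 0, 259 and 272 at week 2, then 236 and 279.6 at week 7. Every later library lay below both week 0 libraries, and the log2 difference of -0.35 at week 7 did not pass (adjusted p = 0.132), although DESeq2 called it (adjusted p = 0.0118). Cox5a, which with Cox5b lies on the matrix side, had 177 and 189 CPM at week 0 and 191 and 162 at week 7, which overlap (log2 -0.05, adjusted p = 0.788). Without week 7 replicate 2 its log2 difference was 0.06. Exons of Cox6c overlap Vps13b, which had 11460 counts over the 6 libraries against 41716 for Cox6c.

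Isoform choice was that of liver in all weeks. Per kilobase of transcript at week 0, Cox6a1 stood at 569.9 CPM, Cox7a2 at 258 and Cox8a at 435, while their muscle partners Cox6a2 and Cox8b had 0 counts in both week 0 libraries. Cox7a1, the heart and muscle isoform of subunit 7a, had 0.721 and 1.08 CPM at week 0, 0.700 and 0.810 at week 2, then 0.834 and 1.74 at week 7, and Cox6b2, the testis isoform, had 0.241 to 0.456 CPM in all libraries. Cox6a2 reached 11 counts in 1 week 7 library and Cox4i2 12 in 1 week 2 library, and both had 0 in at least 1 library of every week. Of 8 muscle and brown fat markers, 6 were at 0 in every library. Cox6a1 had 317 and 333 CPM at week 0, 339 and 353 at week 2, then 319.9 and 299 at week 7. Cox8a had 241 and 238, then 225 and 241, then 218 and 209. Cox7a2l, a factor that joins complexes III and IV, had 128 and 128 CPM at week 0, 115 and 120.0 at week 2, then 117 and 112 at week 7. None of these 3 passed between weeks 7 and 0. Ndufa4l2, a hypoxia-inducible paralogue of Ndufa4, had 0.963 to 1.83 CPM in all libraries, and its exons overlap the far more abundant Shmt2, so its level is uncertain.

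**Figure D3:**
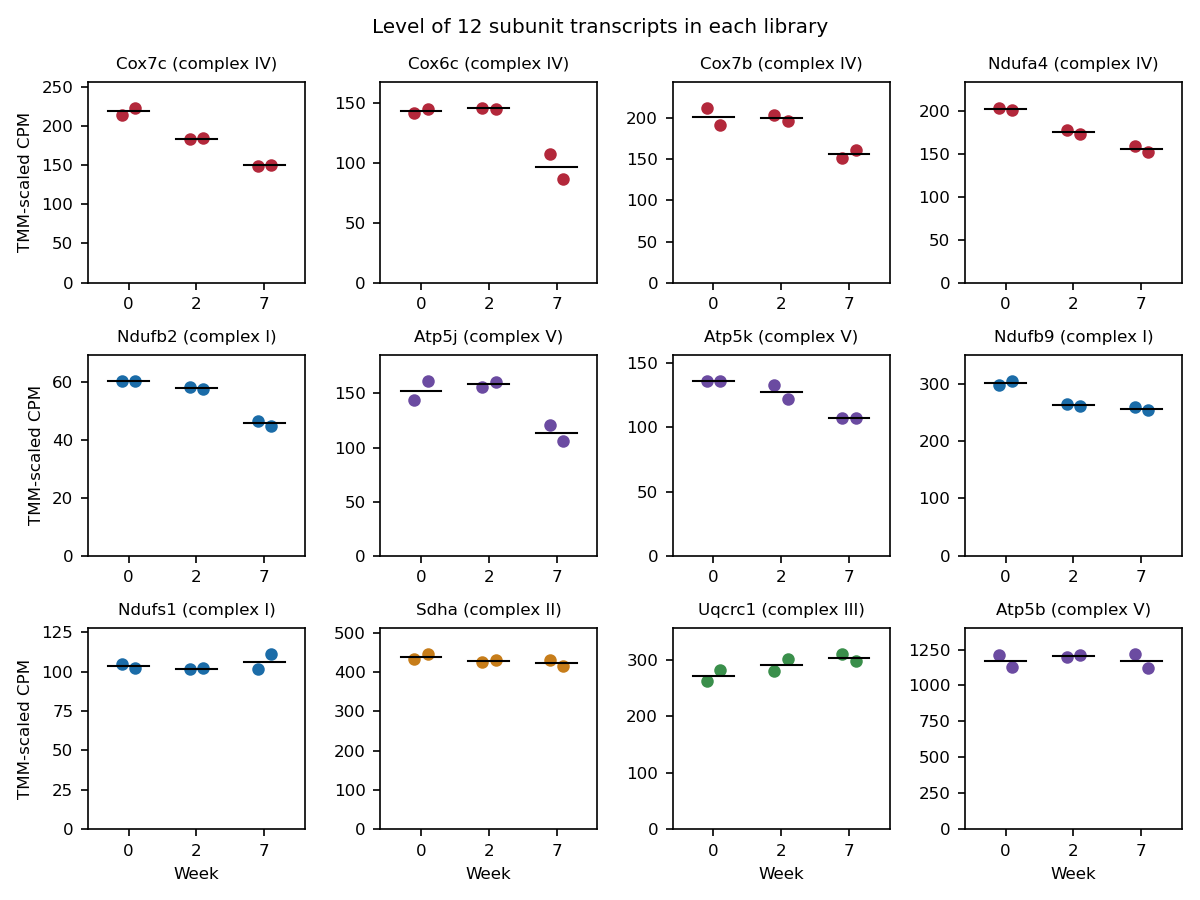
Level of 12 members in each library by week (TMM-scaled CPM, y axes from 0; points are libraries and bars are means of 2). The 8 genes of the upper rows passed the test between weeks 7 and 0, and Cox7c and Ndufa4 descend in steps over the 3 weeks, whereas Ndufs1, Sdha, Uqcrc1 and Atp5b in the bottom row did not pass.

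Complex I, the NADH dehydrogenase, has core and accessory subunits. Of its 28 accessory subunits 8 fell, with a median log2 fold change of -0.21 (6.23% of all genes tested fell). Of the 7 core subunits, which carry the flavin, the iron-sulfur clusters and the ubiquinone site, 1 fell, with a median of -0.08. The difference between the 2 classes was not tested. With the length offset 1 of the 28 accessory subunits, Ndufb2, and 1 of the 7 core subunits, Ndufv2, fell, with medians of -0.07 and 0.002. Ndufb9, in the membrane arm, had 298 and 305 CPM at week 0, 265 and 261 at week 2, then 259.7 and 253 at week 7, so that its lower level was already present at week 2 (log2 -0.23 ± 0.04 SE at week 7, adjusted p = 0.0048). Ndufb2, also of the membrane arm, had 60.3 and 60.3 CPM at week 0, 58.3 and 57.6 at week 2, then 46.6 and 44.9 at week 7 (log2 fold change -0.40, adjusted p = 0.0059), with exons that overlap Braf. Both passed with any 1 library left out. Ndufv2, an iron-sulfur subunit where electrons enter, was the core member that fell: it had 151 and 146 CPM at week 0, 132 and 142 at week 2, then 123 and 123 at week 7 (log2 -0.27, adjusted p = 0.011). Its adjusted p was 0.074 without week 0 replicate 1 and 0.051 without week 7 replicate 1.

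The other 6 called members of complex I fell by less certain amounts. Ndufs6, a zinc-binding accessory subunit, fell by 0.38 on the log2 scale (adjusted p = 0.015), and Ndufa6, a peripheral arm subunit, by 0.31 (adjusted p = 0.027). Exons of Ndufs6 overlap Mrpl36, which had 7503 counts over the 6 libraries, against 3353 to 4548 per library for Ndufs6. Those of Ndufa2, Ndufb6 and Ndufb8 overlap other genes too. Ndufa1 fell by 0.29, Ndufa2 by 0.28, Ndufb6 by 0.22 and Ndufb8 by 0.20, with adjusted p of 0.040, 0.037, 0.047 and 0.028 in that order. All 6 lost their call without week 7 replicate 2 (adjusted p from 0.088 for Ndufs6 to 0.167 for Ndufa2). Of the 6, 5 lost it without week 0 replicate 1 (up to an adjusted p of 0.158 for Ndufa2), 5 without week 0 replicate 2 (up to 0.190 for Ndufb6) and 4 without week 7 replicate 1 (up to 0.122 for Ndufb6). Ndufa2 and Ndufb6 also lost it without either week 2 library (adjusted p up to 0.072). Ndufs1, the largest iron-sulfur subunit, had 105 and 102 CPM at week 0, 101 and 102 at week 2, then 101 and 111 at week 7 (log2 0.04, adjusted p = 0.765). Its exons overlap Ino80dos and Eef1b2, the more abundant of which had 52847 counts over the 6 libraries. Ndufs1 itself had 4925 to 6078 counts per library, so its level is uncertain. Ndufv1, which binds NADH and the flavin, had 136 and 99.7 CPM at week 0 and 114 and 128 at week 7, and its replicates differed by more than its weeks (log2 0.04 ± 0.19 SE, adjusted p = 0.934). Without week 0 replicate 2 the Ndufv1 difference was -0.17, and without week 7 replicate 2 that of Ndufs1 was -0.03. Ndufb10 had 84.7 and 103 CPM at week 0 and 79.1 and 123 at week 7, and Ndufa11 32.3 and 56.2 against 51.5 and 30.3. For these 2 accessory subunits too the spread within a week exceeded the difference between weeks.

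Complex II, succinate dehydrogenase, belongs to both the citric acid cycle and the respiratory chain. None of its 4 genes passed between weeks 7 and 0. Sdha, the flavin subunit that oxidises succinate, had 432 and 445 CPM at week 0, 425 and 430.3 at week 2, then 429 and 415 at week 7 (log2 -0.06, adjusted p = 0.380). Sdhb, the iron-sulfur subunit, had 301 and 293, then 287 and 299, then 293 and 276 CPM (log2 -0.06, adjusted p = 0.441). All 4 genes had both week 7 libraries below both of week 0, with log2 differences from -0.13 (the membrane anchor Sdhc) to -0.06. Such separation is common with 2 libraries a week: it held for 27.8% of all genes tested, and for 56% in either direction.

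Complex III passes electrons from ubiquinol to cytochrome c. Of 8 genes 1 fell: Uqcr11, a small subunit, with 167 and 172 CPM at week 0, 156 and 159.6 at week 2, then 148 and 145 at week 7 (log2 -0.21, adjusted p = 0.016). It lost its call without any 1 of the 4 libraries of weeks 0 and 7 (adjusted p up to 0.104). Uqcrc1, core protein 1, had the opposite sign, with 263 and 282 CPM at week 0, 281 and 302 at week 2, then 311 and 298 at week 7. Its week 7 libraries lay above both of week 0, and the difference did not pass (log2 0.16, adjusted p = 0.080). Uqcrfs1, the Rieske iron-sulfur protein, had 216 and 225 CPM at week 0, 231 and 211 at week 2, then 214 and 198 at week 7 (log2 -0.10, adjusted p = 0.306). The remaining 5 genes all had both week 7 libraries below those of week 0, as did 27.8% of all genes tested (56% separated in either direction). Of all genes tested, 6.23% passed as lower.

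In complex V the F1 head, which makes ATP, and the Fo part in and beside the membrane differed in their counts. None of 5 F1 genes passed (median log2 -0.03), and 4 of 11 Fo genes fell (median -0.28). The share of all genes tested that fell was 6.23%. The difference between F1 and Fo was not tested, and with the length offset 1 of the 11 Fo genes, Atp5j, fell (median -0.15, against 0.03 for F1). Atp5k, membrane subunit e, had 136 and 136 CPM at week 0, 133 and 122 at week 2, then 107 and 107 at week 7 (log2 -0.35 ± 0.06 SE against week 0, adjusted p = 0.0044). It also fell against week 2 (log2 -0.25, adjusted p = 0.014). That call was lost when week 2 replicate 1 or either week 7 library was left out (adjusted p up to 0.115) and with the length offset (0.287). Atp5j, subunit F6 of the peripheral stalk, had 144 and 161 CPM at week 0, 156 and 160.5 at week 2, then 121 and 106 at week 7 (log2 fold change -0.43, adjusted p = 0.0087). Its adjusted p was 0.051 without week 0 replicate 2, and its exons overlap Gabpa. Atp5h, subunit d of the stalk, fell by 0.28 on the log2 scale (adjusted p = 0.018), and the membrane proteolipid Atp5mpl by 0.32 (adjusted p = 0.019). Atp5h lost its call without either week 0 library or week 7 replicate 2 (adjusted p up to 0.102), and Atp5mpl without any 1 of the 4 libraries of weeks 0 and 7 (up to 0.111).

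The abundant F1 subunits did not pass. Atp5b, the catalytic beta subunit and the member with the highest CPM, had 1216 and 1131 CPM at week 0, 1199.8 and 1213 at week 2, then 1218 and 1122 at week 7, which overlap throughout (log2 -0.004 ± 0.05 SE, adjusted p = 0.978). Atp5a1, the alpha subunit, had 721 and 811 CPM at week 0, 834 and 808 at week 2, then 869 and 955 at week 7. Both week 7 libraries were the highest of the 6, and the difference did not pass (log2 0.25 ± 0.07 SE, adjusted p = 0.062). It passed without week 0 replicate 2 (log2 0.34, adjusted p = 0.014) and in DESeq2 (adjusted p = 0.0117). The c-ring, which turns as protons pass, is encoded by 3 genes with the same mature product. Atp5g3 had 345 and 311 CPM at week 0, 341 and 344 at week 2, then 314 and 325 at week 7. Atp5g1 had 182 and 178, then 190.3 and 195, then 169.9 and 158, and Atp5g2 83.1 and 80.9, then 88.9 and 85.8, then 85.4 and 85.2. None of the 3 passed between weeks 7 and 0. Atp5f1, subunit b of the stalk, had the lowest mean ratio of complex V, 0.702, but 332 and 399.8 CPM in the libraries of week 0 and did not pass.

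At week 2, when sex also differed, most members were close to week 0. Of 79 members 1 rose and 7 fell, where 9.81% of all genes tested rose and 8.81% fell (18.6% in either direction), and the median log2 fold change was -0.04. The libraries did not overlap for 41 members, 12 higher and 29 lower, against 60.2% of all genes (31.4% higher, 28.8% lower). The 4 with the smallest adjusted p among those that fell were Cox7c (log2 -0.25 ± 0.04 SE, adjusted p = 0.0043), Ndufb9 (-0.20 ± 0.04, 0.0077), Ndufa4 (-0.21 ± 0.05, 0.014) and Cox7a2 (-0.26 ± 0.06, 0.020). Ndufs8, an iron-sulfur core subunit of complex I, rose, with 98.9 and 102 CPM at week 0, 116 and 114 at week 2, then 93.0 and 90.5 at week 7 (log2 0.19 ± 0.05 SE, adjusted p = 0.039). Ndufs6, Atp5h and Uqcr10 also fell. With the replicate number as a block, Ndufs8, Ndufs6 and Uqcr10 did not pass. Ndufs8 also lost its call without any 1 library of weeks 0 and 2, while its log2 difference ran from 0.171 to 0.217 with any 1 library left out. The split depended on scaling: on library totals without TMM 8 rose and 1, Cox7c, fell, with a median over all genes of 0.10 against 0.01 with TMM. On library totals 2007 of all genes tested rose and 913 fell. The count was 3 without either week 0 library, 4 without week 2 replicate 1 and 1 without week 2 replicate 2, and Cox7c was the member called in all of these fits.

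Between week 2 and week 7, again with a difference in sex, 18 members fell and 0 rose (9.73% and 10.1% of all genes, 19.8% in either direction), with a median log2 fold change of -0.10. The libraries did not overlap for 46 members, 5 higher and 41 lower, against 61% of all genes (30.3% higher, 30.8% lower). At an unadjusted p under 0.05, 28 members were lower and 0 higher, and the share of all genes at that threshold was not counted. DESeq2 called 20 members lower and 0 higher, and over all genes 1741 lower and 1831 higher. The smallest adjusted p belonged to Cox7c (log2 -0.30 ± 0.04 SE, 0.0017), Cox6c (-0.59 ± 0.09, 0.0029), Atp5j (-0.48 ± 0.08, 0.0032) and Cox7b (-0.36 ± 0.06, 0.0033), all of which passed with any 1 library left out. Ndufs8 and Ndufa7 passed in the same fits, with log2 fold changes of -0.32 and -0.46. Ndufa7 had 84.8 and 99.4 CPM at week 0, 105 and 104 at week 2, then 74.5 and 77.8 at week 7. The count was 10 without week 2 replicate 1, 9 without week 2 replicate 2 and 10 without week 7 replicate 2. With the length offset 10 members fell and 2 rose and the median was 0.020, and on shortest transcripts 9 fell, with a median of -0.0071. Over all genes 1356 fell and 1478 rose with the offset, and 1359 fell and 1494 rose on shortest transcripts. Upper-quartile scaling gave 28 falls and library totals 27. All genes shifted with these scalings too: 1799 fell and 1258 rose with upper quartile, and 1784 fell and 1248 rose on library totals. With TMM 1495 fell and 1545 rose. This comparison and the one before share the week 2 libraries, and this one and week 7 against week 0 share those of week 7.

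The called members had short transcripts. The median transcript length was 745 bases over the members, from 321.5 to 2900, and 2478.25 over all genes tested. Of the 39 members below the median of 745, 16 fell, with a median log2 fold change of -0.22, and of the 40 at or above it 4 fell, with a median of -0.08. Over all genes tested 6.23% fell, and the share that fell among short genes in general was not counted. Short genes in general were lower too. Over all genes tested, the median log2 fold change at week 7 was -0.14 for 447 genes under 500 bases, -0.10 for 1559 genes of 500 to 1000, -0.03 for 3889 genes of 1000 to 2000 and 0.04 for 9467 longer genes. The medians of the members in the same 4 bins were -0.22, -0.17, -0.08 and -0.06. Across the 79 members, which share libraries, Spearman's rho between length and change was 0.409, and it was 0.115 across 15362 genes. When each library's trend on length was removed by an offset, 8 members passed instead of 20: Cox7c, Cox6c, Cox7b, Ndufa4, Ndufb2, Atp5j and Ndufv2 fell and Uqcrc1 rose. The members' median became -0.05. In that fit Cox7c stood at a log2 fold change of -0.39 (adjusted p = 0.00048) and Cox6c at -0.43 (adjusted p = 0.010), and Atp5k at -0.13 did not pass (adjusted p = 0.168). Annotated length is itself uncertain: Ndufb2 and Atp5g1, at 2413 and 2675.5 bases, carry long annotated transcripts beside short ones, and with the shortest transcript of each gene 8 members passed, all lower. The part of transcript length in the falls beyond these fits was not tested.

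**Figure D4:**
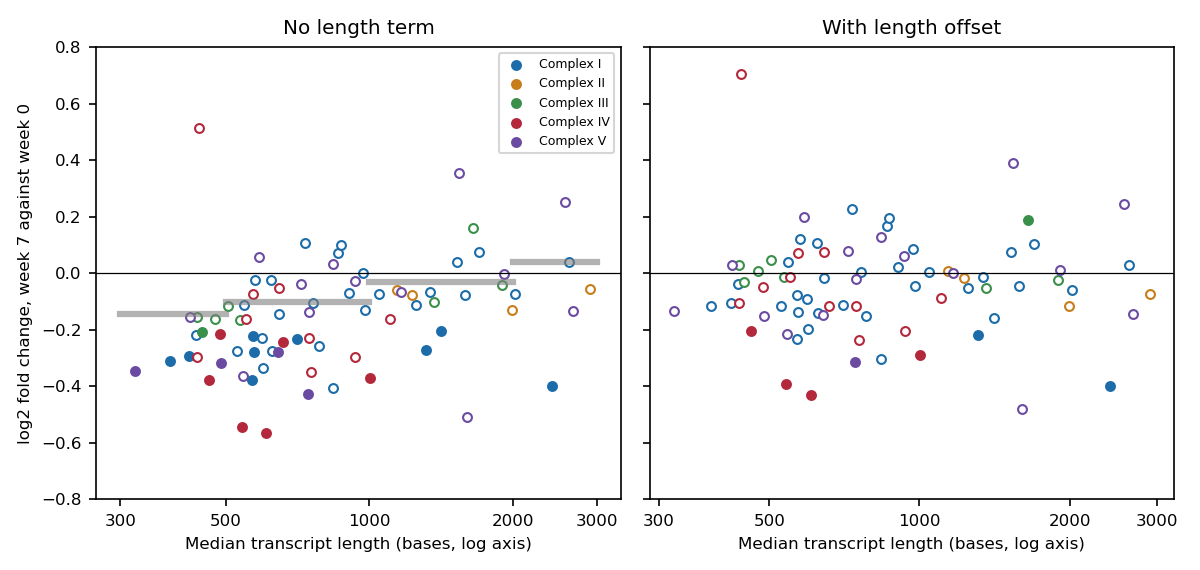
Log2 fold change of the members at week 7 against week 0 by median transcript length (log axis), without a length term (left; grey bars are medians of all genes tested in 4 length bins) and with a length offset (right); filled points passed the test. On the left 20 filled points lie below 0, mostly at short lengths, and on the right 8 points are filled, with 7 below 0.

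Genes that serve the chain were mixed at week 7, when 7.58% of all genes tested rose and 6.23% fell. The regulators included the largest rises. Ppargc1a (PGC-1 alpha), a coactivator of mitochondrial genes, had 3.43 and 3.11 CPM at week 0, 12.9 and 9.17 at week 2, then 8.47 and 7.90 at week 7, 2.50 times week 0 (log2 1.32 ± 0.21 SE, adjusted p = 0.0036). Ppargc1b, its relative, had 3.87 and 3.79 CPM at week 0, 3.47 and 4.63 at week 2, then 6.72 and 7.73 at week 7 (log2 0.91, adjusted p = 0.025), and Esrra, the receptor ERR alpha, 37.8 and 39.6, then 32.8 and 37.3, then 48.4 and 49.7 (log2 0.34, adjusted p = 0.034). Tfb2m, a mitochondrial transcription factor, fell by 0.40 on the log2 scale (adjusted p = 0.027), and 8 of the 12 regulators, Nrf1, Gabpa, Yy1 and Tfam among them, did not pass. Ppargc1a passed with any 1 library left out. Ppargc1b, Esrra and Tfb2m lost their calls without any 1 of the 4 libraries of weeks 0 and 7, with adjusted p up to 0.121, 0.156 and 0.136. Of 13 citric acid cycle enzymes 3 rose and 1 fell, and these 4 passed with any 1 library left out: Idh3a (log2 0.67, adjusted p = 0.00067), citrate synthase Cs (0.38, 0.0036) and Ogdh (0.25, 0.0062) rose, and Suclg1 fell by 0.32 (adjusted p = 0.0021).

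Of 46 assembly factors 0 rose and 1 fell, Sdhaf2, which attaches the flavin of complex II (log2 -0.34, adjusted p = 0.047), and their median was -0.16. Of 19 electron carriers and subunits outside the naming patterns, 1 rose and 2 fell. Cytochrome c, Cycs, had 141 and 137 CPM at week 0, 118 and 120.3 at week 2, then 114 and 115 at week 7 (log2 fold change -0.28, adjusted p = 0.0070, and 0.052 without week 0 replicate 1). Etfa, which carries electrons from fatty acid oxidation, fell by 0.20 (adjusted p = 0.037), and Coq10a, a ubiquinone-binding protein, rose (log2 0.45, adjusted p = 0.028). Sdhaf2 and Etfa lost their calls without any 1 library other than week 0 replicate 2 (adjusted p up to 0.254 and 0.228), and Coq10a without any 1 of the 4 libraries of weeks 0 and 7 (up to 0.143). Of the subunits that the patterns miss, Cyc1 stood at a log2 difference of -0.02 (adjusted p = 0.818) and Ndufab1 at -0.27 (adjusted p = 0.075). Of 78 mitochondrial ribosomal proteins 2 rose and 4 fell, with a median of -0.12. Mrps2 and Mrps17 rose (log2 0.36 and 0.48), and Mrps27, Mrpl1 and Mrpl18 were among those that fell (log2 -0.47, -0.48 and -0.30). Each of these 5 lost its call without 1 library: Mrpl18 in all 6 such fits (adjusted p up to 0.189), Mrps2 without any 1 of the 4 libraries of weeks 0 and 7 (up to 0.144), and Mrps17 without either week 0 library, week 2 replicate 1 or week 7 replicate 2 (up to 0.188). Mrps27 lost it without week 0 replicate 1 or week 7 replicate 1 (up to 0.075), and Mrpl1 without week 0 replicate 2 or week 7 replicate 1 (up to 0.079).

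The 13 subunits encoded by mitochondrial DNA, which are assembled with the nuclear ones, gave 0 calls at week 7 in edgeR, and 1 was at an unadjusted p under 0.05. That gene, mt-Cytb of complex III, had 13399 and 12855 CPM at week 0, 13517 and 12970.4 at week 2, then 9619 and 11272 at week 7 (log2 -0.33, adjusted p = 0.117). DESeq2 called it (adjusted p = 0.00057). The mitochondrial counts were uneven within weeks: mt-Nd4 had 5035 and 62.3 CPM at week 0, 60.1 and 58.3 at week 2, then 51.1 and 5064 at week 7. No direction for these subunits is given from such counts.

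**Figure D5:**
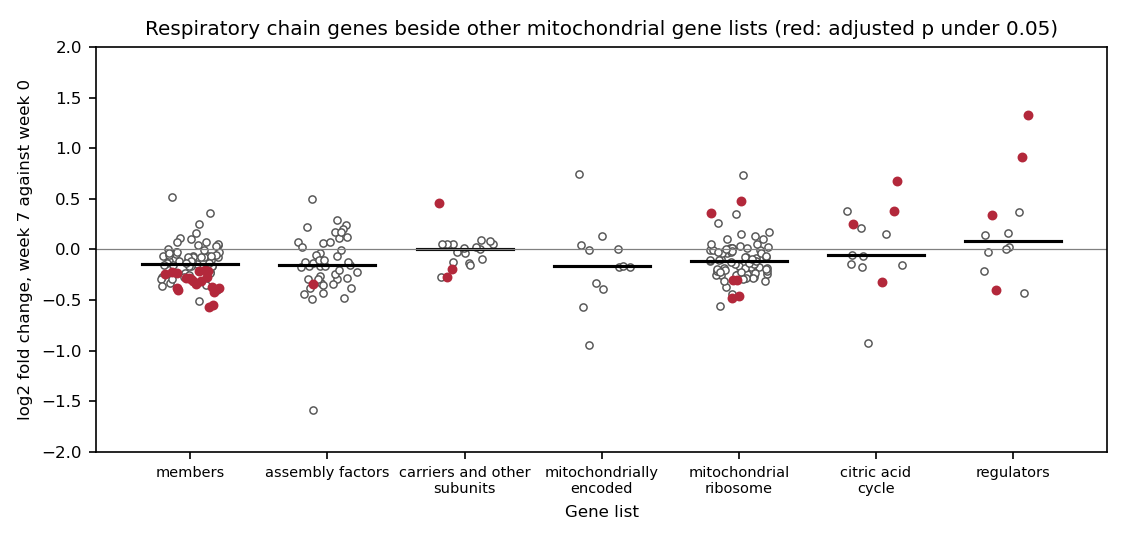
Log2 fold change at week 7 against week 0 of every tested gene of the members and of 6 other mitochondrial lists (points; red passed the test, bars are list medians). The members' red points all lie below 0, while the regulators and citric acid cycle enzymes have red points up to 1.32 and 0.67; 1 gene, mt-Atp6, lies beyond the axis at 7.19.

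Markers of other liver cell types moved over the same weeks. For scale, 6.23% of all genes tested fell at week 7 and 7.58% rose. Of 8 Kupffer cell and macrophage markers 7 fell at week 7 and 0 rose, with a summed level of 401 to 412 CPM at week 0, 554 to 557 at week 2 and 292 to 299 at week 7. Of 8 stellate cell and fibroblast markers 4 fell and 1 rose (201 to 207 CPM at week 0, 328 in both libraries at week 2 and 147 to 153 at week 7). Of 7 endothelial markers 1 fell and 0 rose, of 6 bile duct markers 1 rose and 0 fell, and of 8 tested lymphocyte and neutrophil markers 1 fell and 0 rose. Of the 7 hepatocyte markers 2 rose and 3 fell, albumin among the latter. The part of these cell types in the members' falls was not tested.

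Within a week, most members agreed closely between libraries. The robust SD of the log2 difference between the 2 libraries was 0.10 at week 0, 0.08 at week 2 and 0.08 at week 7 over the members, against 0.10, 0.09 and 0.11 over 3556 well-counted genes. Differences over 0.5 were found for 5 members at week 0, 0 at week 2 and 6 at week 7, the largest in the low-count Atp5s (0.92 at week 0) and Cox7a1 (1.06 at week 7).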

How the data were processed

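Poly-A RNA of mouse liver was sequenced as paired ends from TruSeq V2 libraries, per the labels' protocols, in 6 libraries, 2 at each of weeks 0, 2 and 7, grouped by sample title. The deposited values are estimated counts for Ensembl genes without scaling to depth; all were whole, and among low values multiples of 4 were more frequent than the numbers beside them, so 1 alternative divided the counts by 4. Bowtie 0.12.2 and mm8 are named in the submitters' processing notes with no role. The program that counted, and its annotation, were not given in the sources used here. Of 54446 identifiers 54409 matched GENCODE M21, which gave symbols, lengths and exon overlaps. The only coordinates printed are those of the promoter stretches on GRCm38.p6, since the build behind the table is unsure.

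Counts were analysed with edgeR 4.0.16 in R 4.3.3: filterByExpr kept 15368 genes, libraries were scaled by TMM, and the weeks were coefficients of a robust quasi-likelihood fit over the 6 libraries (3 residual degrees of freedom, biological coefficient of variation 0.209). Tests were 2-sided, and calls had a Benjamini-Hochberg adjusted p under 0.05 over all genes. Each level is the TMM-scaled CPM of 1 library. For the length offset, a lowess trend (span 0.3) on log2 transcript length was fitted in each library. The value fitted was each gene's log2 CPM minus its own mean over the 6 libraries. That trend entered the model as an offset. The code was run on simulated counts, where the fold changes required to be recovered were larger than the falls of the members. Smaller fold changes were simulated too, but how many of those were found is not given here. Python 3.11.15 with pandas 2.3.3 and matplotlib 3.10.9 drew the figures, and promoter windows are RefSeq's on GRCm38.p6.

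Given with their tests were 11 panel genes whatever their result (1 is not reported here), every member called between weeks 7 and 0, the 4 called members per direction with the smallest adjusted p in each week 2 comparison, and up to 3 called genes per direction of each other list. Members named beyond that were chosen after their values were seen. Members and lists were chosen with earlier results of these data known. Alternatives were other scalings and filters, DESeq2 1.42.0, fewer libraries, a replicate block, length offsets and counts divided by 4; the offset on shortest transcripts was added after the data were seen.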

Additional observations from a re-analysis of the deposited data

How the results depend on the processing

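For week 7 against week 0, 5 of the 20 called members were called in all 18 alternatives (Cox6c, Cox7b, Cox7c, Ndufa4 and Ndufb2), and the 20 stayed negative in every one. With the length offset, with that offset and the replicate block, and with the offset on shortest transcripts, 8 members were called each time, and the median log2 fold change was -0.0464, -0.0464 and -0.0594. Over all genes these fits called, in the same order, 920, 712 and 920 lower and 1044, 834 and 1058 higher. With library totals only the median was -0.11. Leaving out 1 library gave 9 to 19 calls and medians from -0.18 to -0.13. For week 2 against week 0, upper-quartile scaling gave 5 calls and a median of -0.0075, library totals a median of 0.0538, and leaving out 1 library 1 to 9 calls and medians from -0.04 to -0.02. For week 7 against week 2, upper-quartile scaling gave 28 calls and a median of -0.15, and library totals 27 calls and a median of -0.15. Over all genes, 1799 and 1784 fell in these fits and 1258 and 1248 rose. The length offset gave 12 calls and a median of 0.0200, with the block 9 and 0.0203, and on shortest transcripts 9 and -0.0071. Leaving out 1 library gave 9 to 15 calls and medians from -0.126 to -0.0867. The causes were not tested.

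On library totals without TMM the summed week 2 ratios were 1.05 (complex I), 1.07 (II), 1.05 (III), 0.983 (IV) and 1.08 (V), and the week 7 ratios of I and V were 0.934 and 0.985.

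Log2 differences of panel genes that did not pass between weeks 7 and 0 changed sign in some fits: Atp5b was 0.033 with library totals, 0.0025 with the 4 libraries compared, 0.012 with the length offset with or without the block; Cox5a was 0.075, 0.070 with the block and 0.036 on shortest transcripts; Sdhb was 0.0075 and 0.0074 with the block. Without 1 library, Atp5b ran from -0.063 to 0.055, Cox5a from -0.173 to 0.059, Ndufs1 from -0.027 to 0.105 and Ndufv1 from -0.166 to 0.280.

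The replicate number as a block gave 19 calls for week 7 against week 0 (17 shared), 6 for week 2 against week 0 and 16 for week 7 against week 2. The numbers do not pair the libraries: deviations of same-numbered libraries correlated at 0.067, -0.276 and -0.059 over 3556 genes. Taking every matching symbol that passed the filter gave the same 79 members. With 2 libraries a week, the smallest fall that passed between weeks 7 and 0 was -0.20 on the log2 scale.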
